A study of Homo sapiens with 6 samples.

Results

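The expression of 10 genes of the TGF-beta and BMP pathways was compared between A549-TIPARP cells and their control, A549-GFP cells. The genes were TGFB1, TGFB2, TGFBR1, TGFBR2, TGFBI, SMAD3, SMAD7, INHBA, BMP4 and ID1, and they were found by symbol among the 53826 entries of each deposited table. The A549 cell line was derived from a lung adenocarcinoma. A549-GFP cells stably carried GFP in the retroviral vector pMXs, and A549-TIPARP cells stably carried the coding region of TIPARP, amplified from cDNA of A549-OKS cells, in the same vector, so both lines had been through retroviral transduction. Neither the sample labels nor the methods say whether a line was a clone or a mixed population. TIPARP is a mono-ADP-ribosyltransferase whose gene is induced by the aryl hydrocarbon receptor (AHR). Poly(A) RNA was sequenced in 3 libraries of each line, and the tables give log2 TPM, a level relative to all transcripts of the library and corrected for transcript length. Of the 10 genes, 9 passed the minimum of TPM above 2 in 1 library or more, in fact in all 6, and were tested among the 13181 genes that passed it. INHBA was at the lowest listed value, 1 TPM, in every library.

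Ligands of the TGF-beta superfamily bind pairs of type I and type II receptors, which are serine/threonine kinases. The receptors phosphorylate SMAD proteins, which enter the nucleus with SMAD4 and change transcription. TGF-beta and activins act mainly through SMAD2 and SMAD3, BMPs mainly through SMAD1 and SMAD5. TGF-beta itself is secreted in a latent complex with LTBP proteins and must be released before it can bind. In lung epithelium the TGF-beta branch is known for growth arrest, matrix production and epithelial-mesenchymal transition, and the BMP branch for induction of the ID genes.

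The promoters of 2 of the genes are given as the reference sequence for the values that follow. TGFB1 was the gene whose libraries did not overlap between the lines, and ID1 was the most abundant of the 10. Both stretches are the 250 bases before the RefSeq transcription start on GRCh38.p14, written 5′ to 3′ on the strand of the gene, from chr19:41353923-41354172 (minus strand) for TGFB1 and chr20:31605039-31605288 (plus strand) for ID1. Capitals mark matches on either strand to GCGTG, the core of the AHR binding site.
TGFB1 promoter: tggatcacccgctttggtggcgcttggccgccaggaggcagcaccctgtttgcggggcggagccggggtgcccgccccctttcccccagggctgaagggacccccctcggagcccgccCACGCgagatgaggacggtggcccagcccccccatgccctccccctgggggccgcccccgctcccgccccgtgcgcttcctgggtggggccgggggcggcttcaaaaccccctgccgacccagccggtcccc
ID1 promoter: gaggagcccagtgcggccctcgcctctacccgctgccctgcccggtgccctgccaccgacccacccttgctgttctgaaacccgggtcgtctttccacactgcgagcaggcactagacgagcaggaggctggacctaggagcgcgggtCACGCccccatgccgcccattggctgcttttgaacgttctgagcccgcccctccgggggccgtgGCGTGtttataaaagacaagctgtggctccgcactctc
The TGFB1 stretch held 1 match and had a GC content of 76.8%, and the ID1 stretch held 2 matches at a GC content of 66.0%. Such a match was present in 32.2% of all 35116 promoter windows of that length. The SMAD motifs CAGACA, GTCTAGAC and GCCGNCGC, searched on both strands, had no match in either stretch and were present in 13.6%, 0.182% and 12.9% of all windows. These are matches of letters, and binding was not measured.

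TIPARP, the introduced gene, was at 6.79, 11.4 and 3.68 TPM in the A549-GFP libraries (replicates 1, 2 and 3) and at 131, 90.5 and 123 TPM in A549-TIPARP replicates 1, 2 and 3, so TIPARP RNA matched the label of each library. Introduced and endogenous TIPARP RNA cannot be told apart in these values. The control libraries were less alike than the A549-TIPARP libraries. For the 12244 genes above the lowest value in all libraries, the deviation of log2 TPM from the mean of the gene over the 6 libraries was taken. Its median was 0.27 in A549-GFP replicate 2 and -0.19 in A549-GFP replicate 3, while the other 4 lay between -0.08 and 0.03. Deviations from the mean of the line were taken over the 12167 of these genes that passed the minimum. As a root mean square, they came to 0.591 in A549-GFP replicate 2 and to between 0.164 and 0.384 in the other 5 libraries. Results are therefore also given without A549-GFP replicate 2. Epithelial markers led by KRT8 and KRT18 summed to between 20900 and 36700 TPM in A549-GFP libraries and to between 31900 and 35200 TPM in A549-TIPARP libraries, and 1 of 9, CDKN2A, was at the lowest value throughout. Of the markers of endothelial, mesenchymal and leukocyte cells, 7 of 8, 7 of 9 and 4 of 7 were at the lowest value in all libraries, PECAM1, CDH5, PDGFRA, COL3A1 and PTPRC among them. The endothelial marker above it was ESAM, at 2.43 to 8.1 TPM. The mesenchymal ones were ACTA2, at 13.1 to 38.8 TPM, and COL1A1, at up to 2.56 TPM. The leukocyte ones were LYZ, at 3.14 to 7.25 TPM, CD14, at up to 5.63 TPM, and ITGAM, at up to 1.72 TPM. In bulk RNA, fewer cells that express a gene and less of its RNA per cell cannot be told apart.

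The 10 genes covered a wide range of levels. By the geometric mean over the 6 libraries, ID1 stood at 610 TPM and TGFBI at 345 TPM. Next came TGFBR2 at 77.9, SMAD3 at 66.2, TGFB1 at 65.3 and BMP4 at 41.2 TPM. TGFBR1 at 7.57, TGFB2 at 5.83 and SMAD7 at 5.68 TPM formed a low group. Gaps at 2 places in this order were clear of the spread between libraries, since the lowest TGFBI value of 259 TPM was above the highest TGFBR2 value of 105 TPM and the lowest BMP4 value of 35.1 TPM was above the highest TGFBR1 value of 8.78 TPM. The other neighbours among the 9 genes overlapped in their ranges, although TGFB1 was above BMP4 in 6 of 6 libraries, and SMAD3 was above TGFB1 in 3 of 6 libraries.

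**Figure D1:**
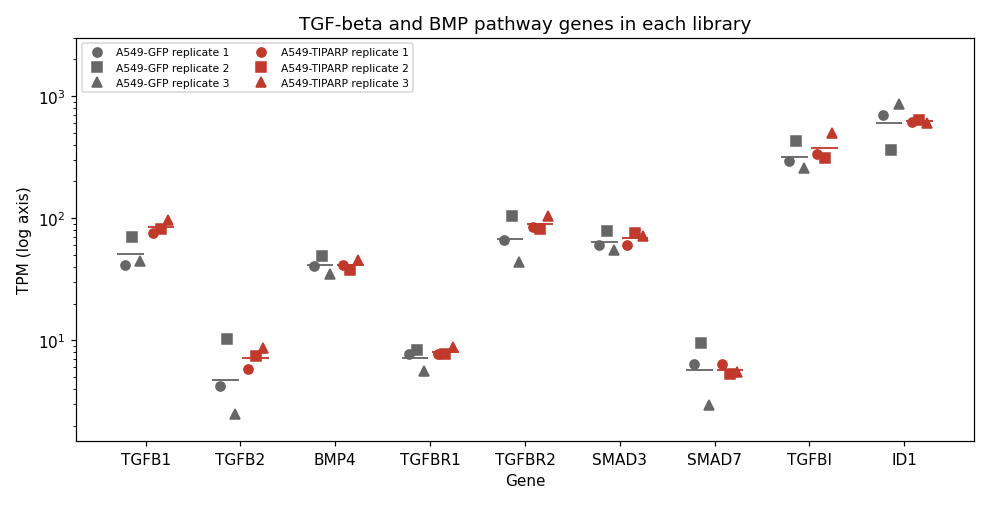
TPM (log axis) of the 9 tested genes in each library, with A549-GFP in grey and A549-TIPARP in red, symbols for replicates 1, 2 and 3 and lines for the geometric mean of each line. TGFB1 is the gene whose red points all lie above the grey ones, from 75.4 to 96.9 TPM against 41.0 to 70.1 TPM.

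Among the ligands, TGFB1 differed most between the lines. TGFB1 (Entrez Gene ID 7040, hg38 chromosome 19, bases 41301587 to 41353922, minus strand, 7 exons in the canonical transcript) encodes the TGF-beta 1 ligand. Its TPM was 41.0, 70.1 and 44.8 in the A549-GFP libraries (replicates 1, 2 and 3) and 75.4, 82.2 and 96.9 in A549-TIPARP replicates 1, 2 and 3. The lines did not overlap, and the closest pair was A549-GFP replicate 2 and A549-TIPARP replicate 1. On the log2(TPM + 1) scale the mean was 5.69 ± 0.41 in A549-GFP cells and 6.42 ± 0.18 in A549-TIPARP cells (SD, n = 3 each), a difference of 0.73 with a standard error of 0.23 and a 95% interval from 0.20 to 1.26, or 1.67-fold between the geometric means. The limma p-value was 0.0132, and after Benjamini-Hochberg adjustment over all 13181 genes it was 0.966, so the difference did not pass the test. An exact permutation test of TGFB1 alone (two-sided, n = 3 against 3) gave p = 0.10, the smallest value that this design allows.

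TGFB2 (Entrez Gene ID 7042, chromosome 1 from 218345336 to 218444619), a second TGF-beta ligand, was more than 10 times less abundant than TGFB1 by geometric mean. Its TPM was 4.19, 10.2 and 2.47 in the A549-GFP libraries (replicates 1, 2 and 3) and 5.80, 7.40 and 8.64 in A549-TIPARP replicates 1, 2 and 3. A549-GFP replicate 2 was the highest and A549-GFP replicate 3 the lowest of all 6 libraries, so the A549-TIPARP values lay inside the range of the controls. The difference on the log2(TPM + 1) scale was 0.48 (standard error 0.40, limma adjusted p = 0.994).

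BMP4 (Entrez Gene ID 652, chromosome 14 from 53949736 to 53958761 on the minus strand), a BMP ligand, was at 40.6, 49.3 and 35.1 TPM in A549-GFP replicates 1, 2 and 3. In A549-TIPARP replicates 1, 2 and 3 it was at 41.0, 37.4 and 45.6 TPM, within the range of the controls. The difference was -0.002 on the log2(TPM + 1) scale, with a 95% interval from -0.45 to 0.44 (limma unadjusted p = 0.991). INHBA (Entrez Gene ID 3624, chromosome 7 from 41667168 to 41705834 on the minus strand), which encodes the subunit of activin A, was listed at the floor of 1 TPM in all 6 libraries, and no fold change was computed for it.

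The type II receptor TGFBR2 was about 10 times as abundant as the type I receptor TGFBR1, at 77.9 against 7.57 TPM by geometric mean over the 6 libraries. TGFBR2 (Entrez Gene ID 7048, chromosome 3 from 30606601 to 30694142) was at 66.1, 105 and 44.1 TPM in the A549-GFP libraries (replicates 1, 2 and 3) and at 85.3, 81.8 and 104 TPM in A549-TIPARP replicates 1, 2 and 3. The A549-TIPARP libraries were above 2 of the control libraries and below A549-GFP replicate 2. The difference was 0.41 on the log2(TPM + 1) scale (standard error 0.30, limma adjusted p = 0.994). TGFBR1 (Entrez Gene ID 7046, chromosome 9 from 99104038 to 99154192) was at 7.68, 8.28 and 5.64 TPM in the A549-GFP libraries (replicates 1, 2 and 3) and at 7.68, 7.77 and 8.78 TPM in A549-TIPARP replicates 1, 2 and 3. Its values overlapped between the lines, with a difference of 0.16 and a 95% interval from -0.35 to 0.66.

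Of the SMAD genes, SMAD3 transmits the TGF-beta signal and SMAD7 encodes an inhibitory SMAD that is itself induced by the pathway. SMAD3 (Entrez Gene ID 4088, chromosome 15 from 67063763 to 67195173) was at 59.9, 79.1 and 54.9 TPM in the A549-GFP libraries (replicates 1, 2 and 3) and at 60.6, 75.2 and 71.1 TPM in A549-TIPARP replicates 1, 2 and 3, all within the control range. SMAD7 (Entrez Gene ID 4092, chromosome 18 from 48919853 to 48950965 on the minus strand) was at 6.45, 9.46 and 2.97 TPM in the A549-GFP libraries (replicates 1, 2 and 3) and at 6.37, 5.27 and 5.51 TPM in A549-TIPARP replicates 1, 2 and 3. For SMAD7 the control libraries spanned 3.19-fold and the A549-TIPARP libraries 1.21-fold inside that span. The differences on the log2(TPM + 1) scale were 0.10 for SMAD3, with a 95% interval from -0.35 to 0.55, and -0.01 for SMAD7, with one from -0.80 to 0.78.

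TGFBI and ID1 are targets of the 2 branches. TGFBI (Entrez Gene ID 7045, chromosome 5 from 136028988 to 136063818, 17 exons in the canonical transcript) encodes a secreted matrix protein named for its induction by TGF-beta. Its TPM was 294, 430 and 259 in the A549-GFP libraries (replicates 1, 2 and 3) and 336, 312 and 496 in A549-TIPARP replicates 1, 2 and 3. The lines overlapped, A549-TIPARP replicate 3 being the highest library and A549-GFP replicate 2 the next. The difference was 0.22 on the log2(TPM + 1) scale (standard error 0.25, limma adjusted p = 0.994).

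ID1 (Entrez Gene ID 3397, chromosome 20 from 31605283 to 31606515, 2 exons in the canonical transcript) encodes an inhibitor of basic helix-loop-helix factors and is a direct target of BMP signalling. It was at 696, 360 and 862 TPM in the A549-GFP libraries (replicates 1, 2 and 3) and at 616, 640 and 604 TPM in A549-TIPARP replicates 1, 2 and 3. The A549-TIPARP libraries lay within 1.06-fold of each other, between A549-GFP replicates 1 and 2. The difference was 0.05 on the log2(TPM + 1) scale, with a 95% interval from -0.62 to 0.71 (limma adjusted p = 0.998).

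**Figure D2:**
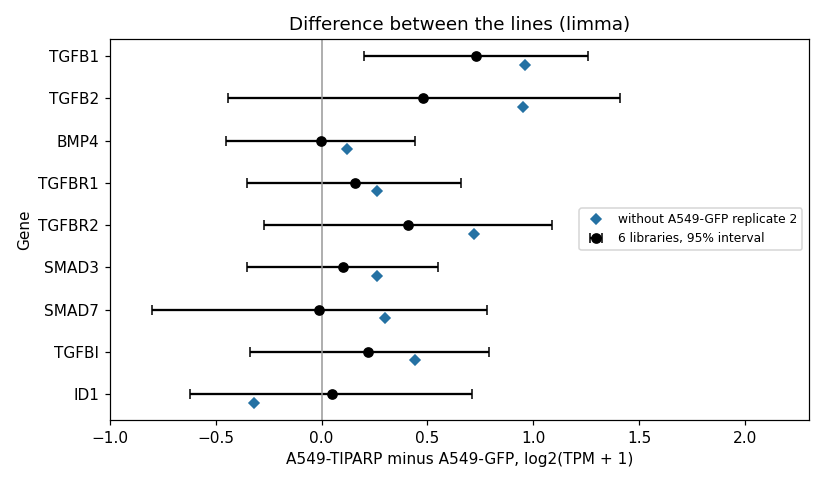
Difference between the lines (A549-TIPARP minus A549-GFP) on the log2(TPM + 1) scale for the 9 tested genes, with the limma estimate and 95% interval from all 6 libraries in black and the estimate without A549-GFP replicate 2 in blue. The interval lies above 0 for TGFB1, from 0.20 to 1.26, and includes 0 for the other 8 genes.

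Over the 9 tested genes, 0 had a limma adjusted p-value under 0.05, against 0.0152% of all genes tested. An unadjusted p-value under 0.05 was found for 1 gene, TGFB1, and for 3.85% of all genes tested. TGFB1 was also the 1 gene whose libraries did not overlap between the lines, where 8.91% of all genes tested did not overlap, 5.36% being higher and 3.54% lower in A549-TIPARP cells. Of the 9 genes, 0 were more than 2-fold apart, against 1.96% of all genes, 1.53% higher and 0.432% lower. The mean was higher in A549-TIPARP cells for 7 of the 9 genes and for 39.6% of all genes, and the median difference was 0.16 against -0.06 over all genes. After each library was rescaled by its median ratio the 2 medians were 0.22 and -0.004. The call of TGFB1 at an unadjusted p-value under 0.05 rested on single libraries. Its p-value was 0.0522 without A549-GFP replicate 1, 0.0520 without A549-GFP replicate 3 and 0.0527 without A549-TIPARP replicate 3, with differences of 0.58, 0.64 and 0.63.

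Without A549-GFP replicate 2 the ligand and receptor genes stood further apart. The differences on the log2(TPM + 1) scale became 0.96 for TGFB1, 0.95 for TGFB2 and 0.72 for TGFBR2, with unadjusted limma p-values of 0.000753, 0.00952 and 0.0151. These 3 of the 9 genes compare with 9.30% of all genes that were higher at an unadjusted p-value under 0.05 in that fit. Their adjusted p-values of 0.225, 0.305 and 0.350 did not pass the test, which 0.0228% of all genes passed. The mean was higher in A549-TIPARP cells for 8 of the 9 genes and for 57.4% of all genes, and the median difference over the 9 genes was 0.30 against 0.04. ID1 was the exception at -0.32, where all libraries together had given 0.05. Leaving out A549-GFP replicate 3 instead moved the genes the other way. The difference was then 0.10 for TGFB2, 0.10 for TGFBR2 and 0.01 for TGFBR1, with unadjusted limma p-values of 0.783, 0.688 and 0.940, and -0.40 for SMAD7.

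The control libraries differed among themselves in a common order. For 7 of the 9 genes (TGFB2, TGFBR1, TGFBR2, TGFBI, SMAD3, SMAD7 and BMP4), A549-GFP replicate 3 was the lowest control and replicate 2 the highest, an order found in 42.5% of all genes tested. The ratio of the highest to the lowest control was 4.13 for TGFB2, 3.19 for SMAD7 and 2.39 for TGFBR2. ID1 had the opposite order, found in 6.76% of all genes, also with a ratio of 2.39. TGFB1 followed neither order, as replicate 1 was its lowest control. In A549-TIPARP cells the ratio of the highest to the lowest library was between 1.06 for ID1 and 1.59 for TGFBI. The SD on the log2(TPM + 1) scale was larger in A549-GFP cells for 9 of the 9 genes and for 79.4% of all genes tested.

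**Figure D3:**
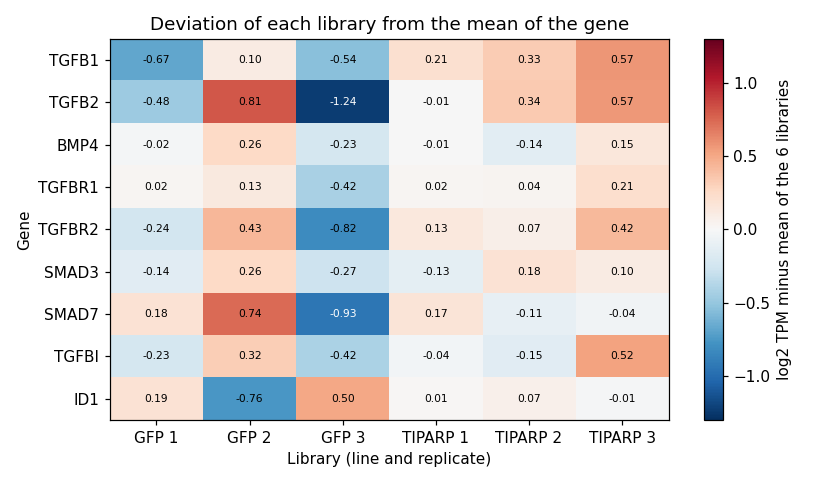
Deviation of log2 TPM in each library (columns, line and replicate) from the mean of the 6 libraries for each of the 9 tested genes (rows), with red above and blue below the mean. For most genes A549-GFP replicate 2 is red and replicate 3 blue, with the lowest value for TGFB2 in replicate 3, and ID1 has the colours exchanged.

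To set the 10 genes in their pathway, 150 genes of the TGF-beta and BMP pathways were taken as 9 lists by role, the 10 genes included. Of these, 94 were tested and 48 were at the floor of the tables in all libraries. By limma 0 of the 94 had an adjusted p-value under 0.05. At an unadjusted p-value under 0.05, 6 were higher and 2 were lower in A549-TIPARP cells, where 2.97% of all genes were higher and 0.880% lower. The median difference over the 94 genes was 0.04 on the log2(TPM + 1) scale, against -0.06 over all genes, and 53 of the 94 means were higher. Without A549-GFP replicate 2 the median was 0.19, against 0.04 over all genes, and 72 of the 94 means were higher. The counts were then 21 higher and 3 lower at an unadjusted p-value under 0.05, with 9.30% and 1.16% of all genes, and none passed after adjustment.

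The lists are read against all genes, of which 39.6% had the higher mean in the A549-TIPARP line with a median difference of -0.06, or 57.4% with a median of 0.04 without A549-GFP replicate 2. Of 8 tested genes for the latency and activation of TGF-beta, the mean of A549-TIPARP cells was the higher one in 8, with a median difference of 0.29, or 0.50 without A549-GFP replicate 2. LRRC32, 1 of these 8, was above the lowest value only in A549-TIPARP replicate 3, at 2.35 TPM, so the filter fixed its direction. Of 23 tested TGF-beta target genes, 15 had a higher mean and the median was 0.31. COL1A1, 1 of these 15, likewise passed the minimum only through A549-TIPARP replicate 3. Of 12 tested SMADs and SMAD partners, 11 had a lower mean and the median was -0.13, and SMAD3 was the exception. Without A549-GFP replicate 2 the mean was higher for 6 of these 12 genes and the median was -0.003. Of 11 tested BMP target genes, 4 had a higher mean and the median was -0.02, close to the values of all genes. The median was 0.28 for 8 TGF-beta and activin ligands, 0.21 for 6 BMP and GDF ligands, 0.10 for 12 receptors and coreceptors, 0.07 for 5 extracellular antagonists and -0.03 for 16 inhibitors that act inside the cell or at its membrane. Among the TGF-beta and activin ligands, LEFTY1 and INHA passed the minimum only through A549-TIPARP libraries. TGFB3 and INHBE passed it only through A549-GFP replicate 2, so the directions of these ligands follow in part from the filter. After rescaling by the median ratio, the medians of the SMAD list and of the BMP targets were -0.07 and 0.04, so the second changed its sign, as did that of the inhibitors, at 0.03. Without A549-GFP replicate 2 the medians were 0.001 for the BMP targets, 0.11 for the inhibitors, 0.42 for the TGF-beta and activin ligands and 0.10 for the BMP and GDF ligands. They were then 0.25 for the receptors, 0.26 for the extracellular antagonists and 0.35 for the TGF-beta targets.

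**Figure D4:**
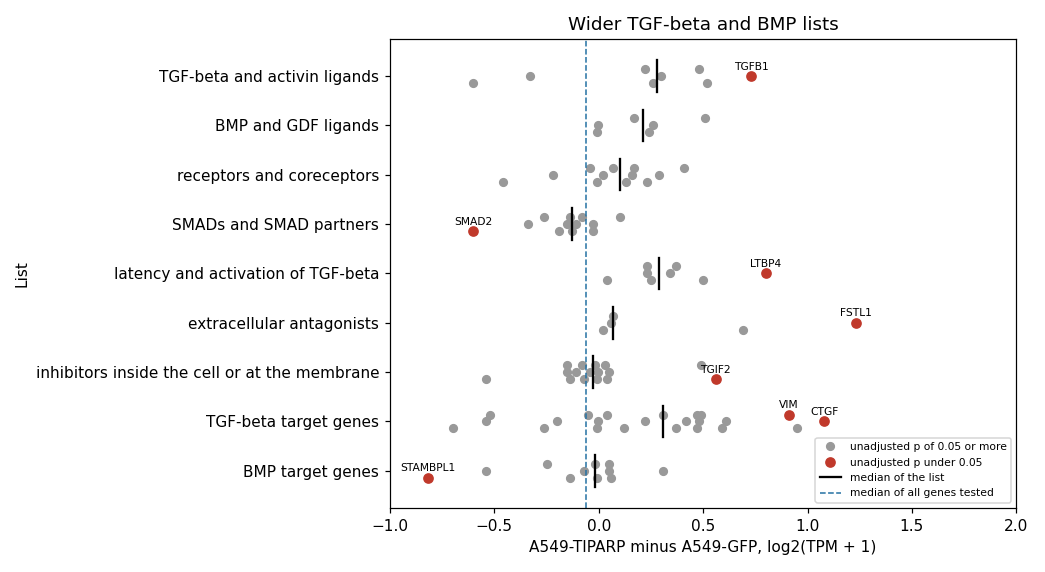
Difference between the lines (A549-TIPARP minus A549-GFP, log2(TPM + 1)) for the tested genes of each pathway list, with genes of an unadjusted limma p-value under 0.05 in red and named, the median of each list as a black bar and the median of all 13181 genes as a dashed line at -0.06. The 8 red genes are spread over 7 of the lists, and some genes belong to more than 1 list.

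The 8 genes with an unadjusted p-value under 0.05 were TGFB1, LTBP4, FSTL1, TGIF2, VIM, CTGF, SMAD2 and STAMBPL1. LTBP4, which binds latent TGF-beta in the matrix, was at 11.6, 16.2 and 11.4 TPM in the A549-GFP libraries (replicates 1, 2 and 3) and at 21.6, 20.5 and 28.1 TPM in A549-TIPARP replicates 1, 2 and 3, a difference of 0.80 without overlap (limma adjusted p = 0.856). FSTL1, a secreted glycoprotein of the follistatin family, was at 5.47, 2.37 and 4.01 TPM against 10.1, 10.3 and 10.2 TPM. Its fold of 2.74 was the largest among the 94 pathway genes, with a difference of 1.23 and a standard error of 0.27 (limma adjusted p = 0.477). The 3 A549-TIPARP libraries were nearly equal for FSTL1, and the controls were all below them.

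SMAD2, the partner of SMAD3 in the TGF-beta branch, had its 3 lowest values in A549-TIPARP cells. It was at 26.2, 29.3 and 21.5 TPM in the A549-GFP libraries (replicates 1, 2 and 3) and at 16.0, 16.4 and 17.2 TPM in A549-TIPARP replicates 1, 2 and 3, a difference of -0.60 with a 95% interval from -1.04 to -0.15 (limma adjusted p = 0.966). For SMAD3 the estimate was 0.10, and the contrast between SMAD2 and SMAD3 was not tested. TGIF2, a repressor that binds SMADs, had a difference of 0.56 without overlap, at 4.08, 4.08 and 4.04 TPM against 7.49, 5.98 and 6.07 TPM.

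The TGF-beta target CTGF (also named CCN2), which encodes a matricellular protein, was at 11.3, 26.2 and 8.09 TPM in the A549-GFP libraries (replicates 1, 2 and 3) and at 29.0, 20.7 and 43.5 TPM in A549-TIPARP replicates 1, 2 and 3. A549-GFP replicate 2 was above A549-TIPARP replicate 2, and the difference was 1.08, or 2.22-fold. With the replicate number as a block its unadjusted limma p-value was 0.0758. VIM, the mesenchymal intermediate filament, was at 396, 230 and 496 TPM against 592, 725 and 704 TPM, without overlap and with a difference of 0.91 (limma adjusted p = 0.856). The summed TPM of 9 mesenchymal markers was between 14.5 and 34.7 in A549-GFP libraries and between 20.1 and 41.3 in A549-TIPARP libraries. Most of each sum was ACTA2, at 13.1, 34.7 and 17.6 TPM in A549-GFP and 18.3, 27.2 and 38.8 TPM in A549-TIPARP libraries. The part of mesenchymal cells in the values of VIM and CTGF was not tested. TGFB1I1, a focal adhesion protein, was the third gene past 2-fold beside FSTL1 and CTGF, at 2.03-fold, where 1.53% of all genes were more than 2-fold higher. Its TPM was 6.59, 23.4 and 8.40 in the A549-GFP libraries and 20.1, 17.2 and 31.5 in the A549-TIPARP libraries, so that A549-GFP replicate 2 alone overlapped with the other line, and its difference was 0.95, or 1.46 without that library. STAMBPL1, a deubiquitinating enzyme that was placed among the BMP targets but is not established as one, had a difference of -0.82. Its libraries did not overlap, with a lowest control of 14.5 TPM and a highest A549-TIPARP library of 12.8 TPM. Without A549-GFP replicate 2 the differences were 1.54 for CTGF and 0.60 for VIM. STAMBPL1 was then at -0.42 and lost its call, with an unadjusted limma p-value of 0.0780. LTBP4 at 0.95, FSTL1 at 0.98, TGIF2 at 0.56 and SMAD2 at -0.50 kept an unadjusted p-value under 0.05.

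The libraries of the lines did not overlap for 9 pathway genes that were higher and 3 that were lower in A549-TIPARP cells, where 5.36% and 3.54% of all genes did not. Beside the genes above these were THBS1, TPM1, COL1A1 and MSX1 with higher values and TGFB3 with lower ones. For THBS1 the highest control was at 3.51 TPM and the lowest A549-TIPARP library at 3.53 TPM. For TGFB3 the lowest control was at 1.43 TPM and the highest A549-TIPARP library at 1.38 TPM. COL1A1 passed the minimum only through A549-TIPARP replicate 3, at 2.56 TPM, and TGFB3 only through A549-GFP replicate 2, at 3.0 TPM. The unadjusted limma p-values were 0.347 for THBS1, 0.219 for TGFB3, 0.176 for MSX1 and 0.0913 for COL1A1. TPM1, a tropomyosin gene among the TGF-beta targets, was at 94.5, 118 and 67.8 TPM in the A549-GFP libraries and at 129, 120 and 133 TPM in the A549-TIPARP libraries (replicates 1, 2 and 3), a difference of 0.48 with an unadjusted limma p-value of 0.0560.

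The most abundant genes of each list, other than those described above, overlapped between the lines when all 6 libraries were used. The ligand INHBB, the subunit of activin B, was the most abundant of the TGF-beta and activin ligands at a geometric mean of 76.4 TPM, with a difference of 0.30. Beside ID1, the BMP targets ID3 and ID2 stood at 303 and 104 TPM, with differences of -0.07 and -0.14. SMAD6, the inhibitory SMAD of the BMP branch, stood at 52.7 TPM with a difference of 0.05. BAMBI, a pseudoreceptor that blocks TGF-beta signalling, was at 172 TPM in A549-GFP replicate 2 and between 40.4 and 65.4 TPM in the other 5 libraries, and its difference of -0.54, which was 0.05 without A549-GFP replicate 2, did not pass the test. Among the genes that handle latent TGF-beta, LTBP3 stood at 65.6 TPM, the protease FURIN at 39.7 TPM and the integrin subunit ITGAV at 30.2 TPM, with differences of 0.50, 0.34 and 0.23. The most abundant antagonist outside the cell was FSTL3, a binder of activins, at 69.2 TPM and a difference of 0.02, and FKBP1A, which holds type I receptors inactive, stood at 366 TPM and 0.04. Of the receptors beside TGFBR2, the BMP coreceptor NEO1 stood at 24.5 TPM and the type I receptor ACVR1 at 17.8 TPM, with differences of -0.01 and 0.07. BMP1, listed with the BMP ligands although it is a metalloprotease, stood at 25.9 TPM and the ligand BMP6 at 13.7 TPM, with differences of 0.17 and 0.26. TAB1, which activates the kinase TAK1, stood at 19.7 TPM and -0.13, the TGF-beta target BHLHE40 at 125 TPM and -0.20, and the BMP antagonists NBL1 and TWSG1 at 17.5 and 15.9 TPM with differences of 0.06 and 0.07. Without A549-GFP replicate 2, 5 of these genes had an unadjusted limma p-value under 0.05 with higher values in A549-TIPARP cells, as did 9.30% of all genes, and the lines did not overlap for them, where 21.2% of all genes were higher without overlap. The differences were then 0.81 for LTBP3, 0.79 for INHBB, 1.07 for FURIN, 0.63 for BMP1 and 0.48 for ITGAV, and the lowest of their adjusted p-values was 0.271, for LTBP3. Among the others, BMP6 was then at 0.002, ACVR1 at 0.40, NEO1 at 0.25, ID3 at -0.41, SMAD6 at 0.30 and FSTL3 at 0.26. FKBP1A was at -0.08, BHLHE40 at -0.08, TAB1 at -0.04 and TWSG1 at 0.14 in that fit.

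Each of the 9 genes was compared with the other tested genes of the pathway lists over the 6 libraries. The genes closest to TGFB1 were LTBP4, with Pearson's r = 0.965, and TGFB1I1, with r = 0.950. TGFBR2 was closest to ACVR1B, a type I activin receptor (r = 0.988), and TGFB2 also to ACVR1B (r = 0.978). TGFBR2 and TGFB2 were each other's second match (r = 0.972). TGFBI was closest to FN1, the gene of fibronectin (r = 0.993), with FURIN next (r = 0.932). SMAD7 was closest to SMAD6 (r = 0.973) and ACVR1 (r = 0.970). TGFBR1 was closest to BMPR2 (r = 0.962) and TGFBR2 (r = 0.946), SMAD3 to TGFB2 (r = 0.931) and ITGAV (r = 0.921), and BMP4 to LTBP1 (r = 0.978) and NEO1 (r = 0.964). ID1 had the lowest best match of the 9, SNAI1 with r = 0.865, followed by ID4 with r = 0.814. Each value describes 6 points, the same libraries in every case with the spread of the control libraries described above, and each was the highest or second highest of 93.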

How the data were processed

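RNA from A549-GFP and A549-TIPARP cells (3 libraries each, TruSeq stranded mRNA, paired-end NovaSeq reads) had been aligned by the authors to the hg38 transcriptome with Strand NGS at default parameters. For each library the authors deposited the log2 TPM of every gene, and the lowest value is 0, so TPM under 1 appears as 1. No counts were used, so the depth is unknown and no counting error is given. The software version and annotation release are not given in the sources used here.

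Groups and replicate numbers were taken from the sample titles. The titles number them as experiments, but whether these were separate cultures is not given in the sources used here, so p-values measure the spread between these libraries. Genes with TPM above 2 in at least 1 library were kept. limma 3.58.1 (R 4.3.3, variance trend) was fitted to log2(TPM + 1) of all 13181 genes with Benjamini-Hochberg adjustment, and it was tested on simulated data. Folds are ratios of geometric mean TPM. Permutations used scipy 1.17.1, coordinates GENCODE 44 on hg38, promoters RefSeq (GRCh38.p14), in which all 10 genes had a window.

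The 10 genes and the lists were chosen with earlier results of these data known. Named genes are the 10, list genes past 2-fold or with an unadjusted p-value under 0.05, the 3 most abundant of a list and the 2 most like each gene. TPM1, THBS1, COL1A1, MSX1, TGFB3, LRRC32, LEFTY1, INHA and INHBE were named after their values were seen. Alternatives were no pseudocount or one of 0.1, other filters, rescaling, removal of small RNA entries, no trend, a replicate block and each library left out.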

Additional observations from a re-analysis of the deposited data

How the results depend on the processing

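Under all 14 alternatives, 0 of the 9 tested genes and 0 of the wider pathway genes had an adjusted p-value under 0.05. The sign of the difference was kept for TGFB1, TGFB2, TGFBR1, TGFBR2 and TGFBI, but on leaving out single libraries TGFB2 ran from 0.10 to 0.95, TGFBR2 from 0.10 to 0.72, TGFBI from 0.02 to 0.44 and TGFBR1 from 0.01 to 0.26. In the same fits the difference of TGFB1 ran from 0.58 to 0.96, that of SMAD3 from -0.003 to 0.26, that of SMAD7 from -0.40 to 0.30, that of BMP4 from -0.12 to 0.12 and that of ID1 from -0.32 to 0.31. SMAD7 was at 0.01 with no pseudocount or one of 0.1 and at 0.05 after median-ratio rescaling. BMP4 was at 0.06 after rescaling and 0.005 without small RNA entries. Over the fits that left out a library, from 0 to 3 of the tested genes and from 4 to 24 of the pathway genes had an unadjusted p-value under 0.05, where the share of all genes ran from 1.92% to 10.5%. From 0 to 1 and from 2 to 8 were more than 2-fold apart, where the share of all genes ran from 2.11% to 3.62%. The highest counts were those without A549-GFP replicate 2, with shares of 10.5% and 3.20% of all genes.

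When the experiment number served as a replicate block in limma, 1 of the 9 genes (TGFB1) and 7 of the pathway genes had an unadjusted p-value under 0.05, CTGF being the one lost, against 3.14% of all genes in that fit. None of the 94 pathway genes passed after adjustment with or without the block, whereas TIPARP itself went from an adjusted p-value of 0.0125 to 0.513 with limma. Deviations of same-numbered libraries correlated with r = 0.457, -0.518 and -0.393 over 12167 genes, so the deviations went together in 1 of 3 same-numbered pairs. Deviations from the mean of a line cancel within it, so these correlations depend on each other. They cannot settle whether the numbers mark pairs, and the main fit did not take them as pairs. The unfiltered fit left out entries at the lowest value in all libraries, which have no spread. Values set at 1 TPM and the pseudocount make the differences of low genes smaller.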
